A study of Mus musculus with 48 samples.

Results

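Kidneys of mice given D-alanine were compared with kidneys of mice given vehicle at a single circadian time, CT16, by bulk RNA sequencing. The comparison uses the 8 of the 48 libraries of the series that the labels place at that time, 4 with the treatment D-Ala and 4 with the treatment Vehicle. They were chosen by label alone, and the other 40 libraries cover CT0, CT4, CT8, CT12 and CT20 in the same 2 treatments. All animals are labelled WT and every library comes from kidney. The labels used here give no strain, age, dose or route. Each kidney came from a different mouse, per the series text, which also says that the experiment was done 2 times. The values stand in 2 tables that hold 2 libraries of each group apiece. That a table is 1 run of the experiment is inferred here. Replicates 1 and 2 are in the first table and replicates 3 and 4 in the second, and these numbers only name libraries.

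D-alanine is the mirror image of the amino acid L-alanine, which proteins contain. Mammals take it up with food and from gut bacteria, and the kidney both reabsorbs and degrades it. D-amino acid oxidase, encoded by Dao and abundant in the proximal tubule, turns D-alanine into pyruvate and ammonia with release of hydrogen peroxide. The proximal tubule is also the part of the kidney that makes glucose, from pyruvate among other precursors. Circadian time is counted from the onset of the subjective day, so CT16 lies in the subjective night, when mice are active.

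Depth at CT16 was 7625600 to 13429100 fragments per library, recovered from the steps of the low values, and D-Ala replicate 1 was the shallowest of all 48 libraries (7625600 to 14401400). Values are FPKM, fragments scaled to gene length and library total. Of 49585 genes, 14922 reached 1 FPKM in 4 or more of the 48 libraries and were tested. Kidney markers were high in all 8 libraries. The 12 proximal tubule markers, led by Slc34a1, Miox and Slc27a2, summed to 5110 to 6057 FPKM in D-Ala and 4577 to 5447 FPKM in Vehicle, and the 6 adrenal markers to at most 1.63 FPKM in any library. Library pairs correlated at 0.950 to 0.983 over log2 values.

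The comparison at CT16 asks which transcripts differ between D-alanine and vehicle in the subjective night. No gene passed. In limma on log2(FPKM + 1), with 12 groups, a table term and Benjamini-Hochberg adjustment over all 14922 genes, 0 genes (0%) had an adjusted p under 0.05, and the smallest adjusted p was 0.991. At an unadjusted p under 0.05 there were 708 genes, 611 higher (4.09%) and 97 lower (0.65%) in D-Ala. Limma voom on the recovered fragments also called 0 genes, with 491 higher and 88 lower at an unadjusted p under 0.05. The change was above 0 for 9332 genes (62.5%), with a median of 0.05 on the log2 scale. That balance moved with the scaling. After rescaling each library without its mitochondrially encoded genes, 40.9% of genes lay above 0, and 167 were higher and 340 lower at an unadjusted p under 0.05. With quantile normalization the split was 238 and 304, with median centring 325 and 252, and with TPM 810 and 57. The median standard error of a change was 0.142 on the log2 scale, and the middle of the genes (from the 10% to the 90% point) had standard errors of 0.093 to 0.307. The genes described next are the 10 of smallest p in each direction with the same sign in both tables, from a ranking in which none passed, with other genes from lists chosen for this tissue. Choice by small p favours groups that do not overlap. The share of all genes without overlap between the 4 D-Ala and 4 Vehicle libraries was not counted.

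Mdk, which encodes midkine, a secreted heparin-binding growth factor, led the ranking (chromosome 2, 91929805 to 91932297). It stood at 16.2, 15.97, 15.4 and 25.5 FPKM in D-Ala, against 7.43, 10.5, 6.58 and 10.7 FPKM in Vehicle. The groups did not overlap, and replicate 4 stood well above the other D-Ala libraries. Both D-Ala libraries lay above both Vehicle libraries in each table, which held for 723 of all tested genes (4.85%). The log2 change was 0.97 ± 0.24 (SE; unadjusted p = 0.00018 in limma), 0.80 in the first table and 1.15 in the second, and it ran from 0.80 to 1.15 over the 21 other settings tried. At the other times the change was smaller, from 0.29 at CT4 to 0.73 at CT20, but the test of CT16 against them did not pass (a difference of 0.48 ± 0.26, unadjusted p = 0.07).

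Adm2, the gene of the vasodilator peptide adrenomedullin 2, was low in every library. It had 2.51, 2.62, 3.29 and 2.44 FPKM in D-Ala, against 1.15, 1.71, 0.864 and 0.631 FPKM in Vehicle, from 25 to 50 and from 10 to 30 fragments per library. The lowest D-Ala value exceeded the highest Vehicle value, and the log2 change was 0.85 ± 0.23 (SE; unadjusted p = 0.00059 in limma). Ces1g, which encodes a carboxylesterase that hydrolyses lipid esters and drugs, stood at 2.36, 3.32, 6.60 and 10.4 FPKM in D-Ala and 1.07, 1.62, 1.09 and 3.14 FPKM in Vehicle. Within each table both D-Ala libraries were above both Vehicle libraries, while across tables D-Ala replicate 1 fell below Vehicle replicate 4. Its change of 1.19 ± 0.37 was the largest of the 22 detoxification genes tested (unadjusted p = 0.00283).

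**Figure D1:**
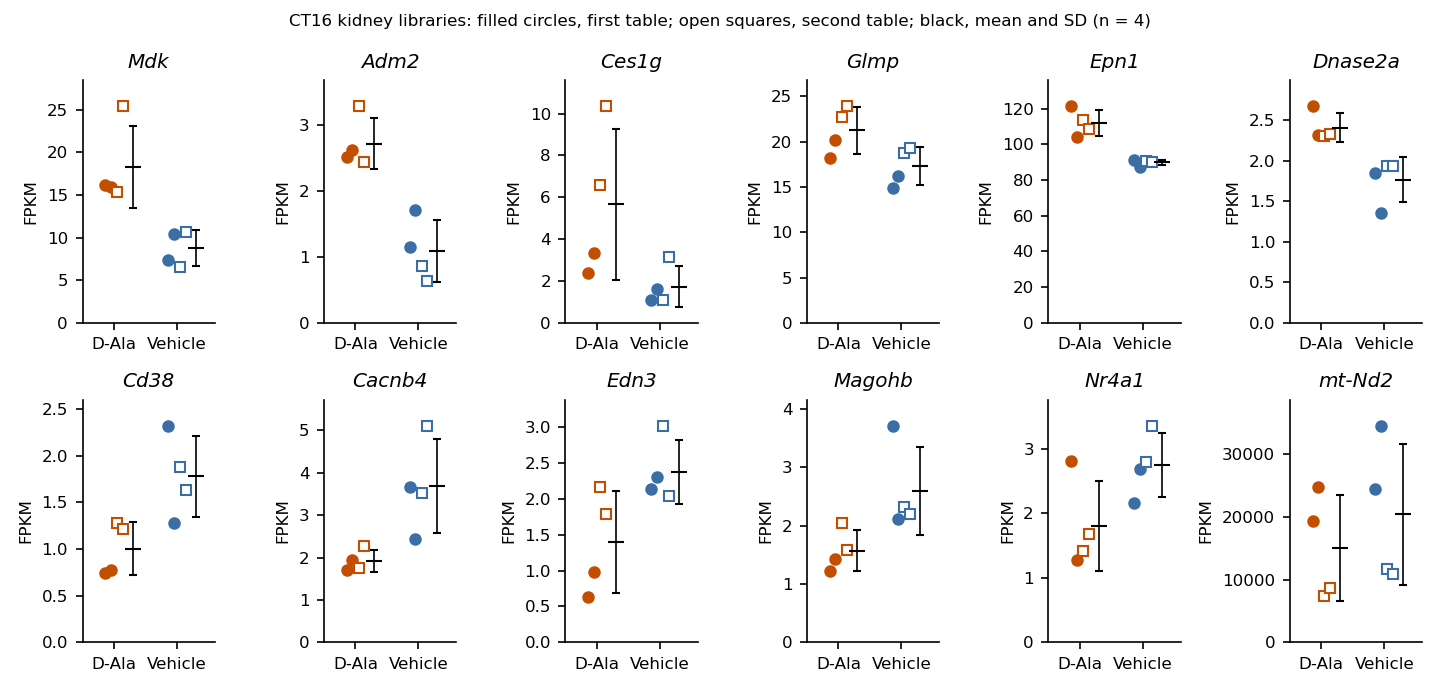
Expression of 12 named genes in the CT16 libraries (y axis, FPKM; each panel has its own scale from 0). Orange marks D-Ala and blue Vehicle, filled circles are the first table, open squares the second, and the black marks are the mean and SD of 4 libraries. D-Ala lies above Vehicle for Mdk, Adm2, Epn1 and Dnase2a without overlap, and below it for Cd38, Cacnb4 and Magohb. These genes were picked for small p, which favours such separation, and none passed the adjusted test.

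The other leading genes with higher values had smaller changes. Glmp, a glycosylated protein of the lysosomal membrane (chromosome 3, 88325023 to 88331313), had 18.2, 20.2, 22.8 and 23.9 FPKM in D-Ala, against 14.9, 16.2, 18.7 and 19.3 FPKM in Vehicle. The table offsets made the groups overlap as a whole, but the log2 change was 0.28 in each table, with 0.28 ± 0.07 (SE) overall and an unadjusted p of 0.000185. Dnase2a, the acid endonuclease that digests DNA in lysosomes, had 2.68, 2.32, 2.31 and 2.33 FPKM in D-Ala and 1.85, 1.35, 1.93 and 1.94 FPKM in Vehicle, with no overlap and a change of 0.30 ± 0.09. Exons of Glmp overlap Tmem79 and exons of Dnase2a overlap Mast1, both on the opposite strand, and no source used here says whether the counting used strand. Of the genes described below, Surf4, Rtcb, Cacnb4, mt-Co1 and Rnf24 also have exons that overlap a gene on the opposite strand. Exons of Magohb and mt-Nd2 overlap a gene on the same strand.

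Epn1, which encodes epsin 1, an adaptor of clathrin-coated pits, had 121, 104, 113 and 109 FPKM in D-Ala, against 91.0, 87.4, 90.6 and 90.2 FPKM in Vehicle. All 4 Vehicle libraries lay below all D-Ala libraries, and the change was 0.31 ± 0.09 (SE). Ap1s1, a small subunit of the clathrin adaptor AP-1, stood at 0.30 ± 0.09 and Surf4, a cargo receptor of the endoplasmic reticulum, by 0.24 ± 0.07. The histone gene Hist1h4i had 5.77, 9.09, 8.72 and 11.0 FPKM in D-Ala and 5.17, 6.25, 3.03 and 4.30 FPKM in Vehicle (0.77 ± 0.21). Histone genes are near copies of each other and share fragments, so its value is uncertain. Prdx6, a peroxiredoxin that reduces peroxides, differed by 0.17 ± 0.05 and Rtcb, the ligase that joins exons of tRNAs, by 0.28 ± 0.08. None of these passed the adjusted test.

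Promoter windows in the RefSeq table of build GRCm38.p6 run from 250 bases before the gene's start to 50 after it. Of the leading genes, 6 of the 10 with higher values and 5 of the 10 with lower values had one, and the window with the lowest start was read where a gene had several. The letters TCANNTGA (N is any base) were searched on both strands. They are looser than the site of TFEB, a regulator of lysosomal genes, so a match need not be that site. The windows of Glmp and Dnase2a, whose proteins are lysosomal, and of Ifi207, whose values were lower in D-Ala, are shown because all 3 hold these letters, printed in capitals. Glmp is on the plus strand at chr3:88324773-88325072, Dnase2a on the plus strand at chr8:84908505-84908804 and Ifi207 on the minus strand at chr1:173741760-173742059.
Glmp: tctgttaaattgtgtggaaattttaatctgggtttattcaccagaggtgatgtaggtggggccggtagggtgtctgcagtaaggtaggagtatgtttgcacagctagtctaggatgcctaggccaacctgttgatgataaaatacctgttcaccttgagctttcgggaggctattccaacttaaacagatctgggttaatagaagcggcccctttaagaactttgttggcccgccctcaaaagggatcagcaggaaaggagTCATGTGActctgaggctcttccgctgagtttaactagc
Dnase2a: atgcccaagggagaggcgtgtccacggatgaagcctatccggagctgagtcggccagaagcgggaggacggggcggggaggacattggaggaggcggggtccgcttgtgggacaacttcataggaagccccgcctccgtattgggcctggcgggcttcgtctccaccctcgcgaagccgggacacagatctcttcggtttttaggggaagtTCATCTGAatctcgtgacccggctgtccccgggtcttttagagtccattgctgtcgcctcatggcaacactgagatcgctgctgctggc
Ifi207: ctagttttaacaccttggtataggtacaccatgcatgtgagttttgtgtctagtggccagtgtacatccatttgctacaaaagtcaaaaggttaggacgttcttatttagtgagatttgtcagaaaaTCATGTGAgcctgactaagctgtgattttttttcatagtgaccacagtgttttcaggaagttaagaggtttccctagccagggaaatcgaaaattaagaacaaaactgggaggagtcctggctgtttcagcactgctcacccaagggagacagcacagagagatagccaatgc
These letters were present in 2 of the 6 windows of genes with higher values (33.3%), in 2 of the 5 windows of genes with lower values (40%), those of Cacnb4 and Ifi207, and in 2757 of all 32851 mouse promoter windows searched (8.39%). The windows searched did not cover every chromosome, and all windows here means those searched. The E-box CACGTG, which the core clock activators bind, was present in 1 of the 6, that of Epn1, in 0 of the 5, and in 7.15% of all windows. It was absent from the windows of Glmp, Dnase2a, Cacnb4 and Ifi207, whose TCANNTGA matches are not shown to be TFEB sites. The cyclic AMP element TGACGTCA (1.79% of all windows) was present in 0 of the 6 and in 1 of the 5, that of Magohb. TGATGNAA, a core of amino acid response elements (3.97%), was present in 0 of the 6 and 0 of the 5. A match is a description of the sequence and says nothing on binding in these kidneys.

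The 10 leading genes in the other direction also missed the threshold. Cd38, which encodes a cell surface enzyme that consumes NAD, had 0.742, 0.770, 1.277 and 1.21 FPKM in D-Ala, against 2.32, 1.283, 1.88 and 1.63 FPKM in Vehicle. The highest D-Ala value, 1.277 FPKM, was just below the lowest Vehicle value, 1.283 FPKM, and the change was -0.47 ± 0.14 (SE; unadjusted p = 0.00138 in limma). Both D-Ala libraries lay below both Vehicle libraries in each table, a pattern of 178 genes in all (1.19%). Cacnb4, a regulatory subunit of voltage-gated calcium channels, had 1.71, 1.94, 1.76 and 2.28 FPKM in D-Ala and 3.67, 2.43, 3.52 and 5.11 FPKM in Vehicle (-0.66 ± 0.22). Its groups did not overlap, and its exons overlap a gene on the opposite strand.

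Edn3, which encodes the vasoactive peptide endothelin 3, had 0.638, 0.985, 2.17 and 1.79 FPKM in D-Ala and 2.14, 2.30, 3.02 and 2.04 FPKM in Vehicle. D-Ala replicate 3 lay above Vehicle replicate 4, and the change of -0.53 ± 0.18 was -0.84 in the first table and -0.23 in the second. Magohb, a core protein of the exon junction complex, had 1.22, 1.43, 2.04 and 1.59 FPKM in D-Ala and 3.72, 2.12, 2.33 and 2.20 FPKM in Vehicle (-0.47 ± 0.16), with Vehicle replicate 1 far above the other Vehicle libraries. Ncf4, a subunit of the phagocyte NADPH oxidase, stood at -0.50 ± 0.16 and the interferon-inducible gene Ifi207 at -0.37 ± 0.13, both below 1 FPKM in every D-Ala library. The remaining leaders were the mitochondrially encoded mt-Co1 and mt-Nd2 and the hairpin loci of 2 microRNAs.

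The microRNA loci rest on few fragments, and libraries from long RNA do not measure the mature microRNAs. Mir6993 had 0 fragments in each D-Ala library and 2, 1, 5 and 0 fragments in Vehicle replicates 1 to 4. A count of 0 allows up to 3 fragments, so no fold is given. Mir3060 had 5, 4, 8 and 11 fragments in D-Ala, against 12, 26, 15 and 14 fragments in Vehicle, or 4.25 to 12.5 FPKM and 11.6 to 23.3 FPKM, with a change of -0.97 ± 0.34 (SE). Their mature sequences from RefSeq (GRCm38.p6) are shown, since the loci are named by them, with the seed, bases 2 to 8, in capitals. Mir6993 lies on the plus strand of chromosome 19 and Mir3060 on the plus strand of chromosome 11.
mmu-miR-6993-5p: aGUGGGAGaaacgggugucuguc
mmu-miR-6993-3p: cUUGCGUUuguuuccucacag
mmu-miR-3060-5p: gGGAGUGCuucgugcuucug
mmu-miR-3060-3p: cCAUAGCAcagaagcacuccca
The 4 arms have 4 different seeds.

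The mitochondrial genome encodes 13 proteins of the respiratory chain and the ATP synthase, and its transcripts took a large part of every library. All mitochondrially encoded genes together held 34.5% and 37.2% of summed FPKM in the D-Ala libraries of the first table, against 40.8% and 47.0% in the Vehicle libraries. In the second table the share was 15.7% and 17.4% in D-Ala and 20.5% and 20.4% in Vehicle. Every D-Ala library lay below every Vehicle library of its table. The difference, averaged over the tables, was -5.975 percentage points, with -8.07 in the first table and -3.88 in the second. The exact two-sided permutation test within tables gave p = 0.0556, which is the smallest p that its 36 arrangements allow. In this design p cannot go below 0.05. Shares were lower in D-Ala by a similar amount at CT0 (-8.335 points in the first table and -3.935 in the second) and CT20 (-6.515 and -3.24). The differences were 0.675 and -0.44 points at CT4, -2.36 and -5.18 at CT8, and 0.325 and -0.98 at CT12.

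**Figure D2:**
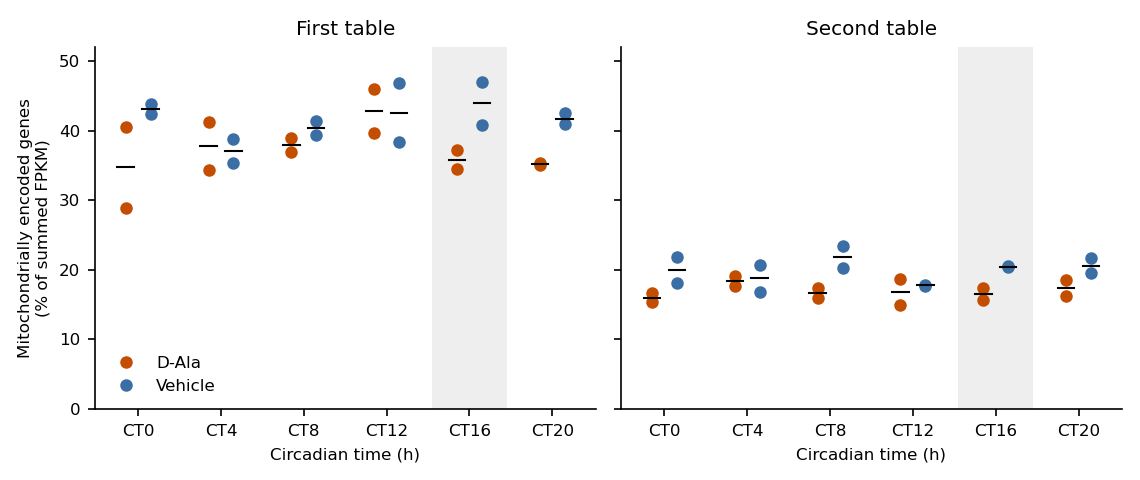
Share of summed FPKM in mitochondrially encoded genes (y axis, percent) in all 48 libraries by circadian time (x axis), with the first table on the left and the second on the right. Each dot is 1 library, D-Ala in orange to the left of Vehicle in blue, and black lines are means of 2 libraries; at CT16 (grey band) the D-Ala means are 35.84% and 16.55% and the Vehicle means 43.9% and 20.43%.

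Of the 13 mitochondrial mRNAs, 12 had a change below 0 at CT16, also in each of the other scalings, with a median of -0.39. Below 0 in both tables were 8 of the 13, against 16.5% of all genes. Another 4 were below 0 in the first table and above 0 in the second, against 21.8% of all genes. At an unadjusted p under 0.05, 6 of the 13 were lower and 0 higher, against 0.65% of all genes lower and 4.09% higher. Only 1 was lower with quantile normalization, where the median was -0.23, and 1 with no filter on low values. In 3 of the 13 both D-Ala libraries lay below both Vehicle libraries in each table, against 1.19% of all genes. For mt-Co1, the catalytic subunit of cytochrome c oxidase, the values were 39770, 40950, 18270 and 18870 FPKM in D-Ala, against 54550, 55240, 23270 and 22240 FPKM in Vehicle (-0.37 ± 0.12 SE; unadjusted p = 0.00343 in limma). For mt-Nd2, a subunit of complex I, they were 19410, 24840, 7347 and 8749 FPKM in D-Ala and 24400, 34560, 11750 and 10950 FPKM in Vehicle (-0.45 ± 0.15). Here D-Ala replicate 2 lay above Vehicle replicate 1 of the same table. The others of the 6 were mt-Cytb (-0.32), mt-Nd1 (-0.32), mt-Nd5 (-0.39) and mt-Co2 (-0.96). The change of mt-Co2 was -1.82 in the first table and -0.10 in the second.

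The exception was mt-Nd6, the only protein gene on the light strand, at 0.50 ± 0.44. It stood at 5445 FPKM in D-Ala replicate 1 and at 427 to 971 FPKM in the other D-Ala libraries, against 441 to 1486 FPKM in Vehicle. Mitochondrial tRNA genes also took 0.819% of FPKM in D-Ala replicate 1 and at most 0.165% in the other D-Ala libraries, against at most 0.268% in Vehicle. Nuclear genes of oxidative phosphorylation were level, with a median change of 0.07 over 18 members, 17 of them above 0 as deposited and 5 after quantile normalization or rescaling without mitochondrial genes. None of the 18 had an unadjusted p under 0.05, and 9 of them lay above 0 in the first table and below 0 in the second.

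Most genes listed for the metabolism and transport of D-amino acids and alanine had slightly higher values in D-Ala at this time, and none was called. Of the 13 listed genes, 11 were tested, because the glyoxylate aminotransferase gene Agxt and the small neutral amino acid transporter gene Slc7a10 reached at most 0.447 FPKM in any CT16 library. Changes lay above 0 for 9 of the 11 (8 to 10 in the other scalings), with a median of 0.17 (0.09 after quantile normalization and 0.08 after rescaling without mitochondrial genes) and 1 at an unadjusted p under 0.05. That gene was Dao, at 124, 112, 158 and 151 FPKM in D-Ala, against 99.8, 94.9, 137 and 131 FPKM in Vehicle. Within each table both D-Ala libraries were higher, and the change was 0.24 ± 0.12 (SE; unadjusted p = 0.0471 in limma). Over the other 5 times its change was -0.003, and the difference between CT16 and those times had an unadjusted p of 0.0657.

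Srr, which encodes serine racemase, the enzyme that makes D-serine, had 18.3, 19.2, 24.8 and 22.2 FPKM in D-Ala and 15.04, 15.7, 22.4 and 19.9 FPKM in Vehicle (0.21 ± 0.10). In the second table D-Ala replicate 4 lay just below Vehicle replicate 3. The alanine aminotransferase genes Gpt and Gpt2 stood at 0.23 ± 0.17 and 0.29 ± 0.18. Ddo, the oxidase of acidic D-amino acids, stood at 0.09 ± 0.15, the broad aminotransferase gene Agxt2 at 0.17 ± 0.15, and the proton-coupled transporter gene Slc36a1 at 0.24 ± 0.25. The neutral amino acid exchanger gene Slc1a5 was the lowest at -0.13 ± 0.20.

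Transporters that reabsorb amino acids from the tubule lumen also lay mostly above 0, but less alike in the 2 tables. Above 0 in the first table and below 0 in the second were 7 of 16, against 23.8% of all genes. The median was 0.25 in the first table and 0.05 in the second. Of 16 tested, 14 lay above 0 (9 after quantile normalization and 10 after rescaling without mitochondrial genes), 1 of them at an unadjusted p under 0.05, with a median of 0.12 (0.03 in both of those scalings). Slc7a7, a light chain of the basolateral exporter of cationic amino acids, had 18.9, 15.8, 17.9 and 17.3 FPKM in D-Ala, against 14.4, 11.0, 9.51 and 10.8 FPKM in Vehicle. The groups did not overlap, and the change was 0.58 ± 0.23 (SE; unadjusted p = 0.0168 in limma). Slc6a19, the main neutral amino acid transporter of the brush border, stood at 0.39 ± 0.26 and Slc1a1, a glutamate transporter, at 0.17 ± 0.11.

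Glucose production was covered by 17 genes, all tested, of which 0 were called and 1 had an unadjusted p under 0.05. The rate-limiting enzyme gene Pck1 had 949, 765, 1130 and 981 FPKM in D-Ala, against 610, 729, 1496 and 1100 FPKM in Vehicle. D-Ala was higher in the first table (0.35) and lower in the second (-0.29), and the change overall was 0.03 ± 0.25. At the other times the log2 change of Pck1 was -0.63 at CT0, -0.47 at CT4, -0.62 at CT8, -0.08 at CT12 and -0.26 at CT20 (mean over the 5 times -0.41, adjusted p = 0.0515 in limma). G6pc, which releases free glucose, stood at -0.19 ± 0.26, Fbp1 at 0.17 ± 0.14 and the pyruvate carboxylase gene Pcx at 0.16 ± 0.14.

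Tpi1, which interconverts the triose phosphates of glycolysis and gluconeogenesis, had 185, 175, 281 and 292 FPKM in D-Ala and 165, 155, 242 and 249 FPKM in Vehicle. Both D-Ala libraries were above both Vehicle libraries in each table, with a change of 0.20 ± 0.07 (SE; unadjusted p = 0.00916 in limma). Of the 17, 14 lay above 0 with a median of 0.10, but 10 after quantile normalization (median 0.02) or after rescaling without mitochondrial genes (median 0.01). The 18 regulators of this pathway had 8 above 0 (4 to 10 in the other scalings) and none at an unadjusted p under 0.05, among them the protein kinase A subunit gene Prkaca at 0.15 ± 0.08. Of 14 glycolysis genes tested, 9 lay above 0 (4 to 10 in the other scalings), and Pfkfb2, which sets the level of an activator of glycolysis, was the only one at an unadjusted p under 0.05 (-0.22 ± 0.11).

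**Figure D3:**
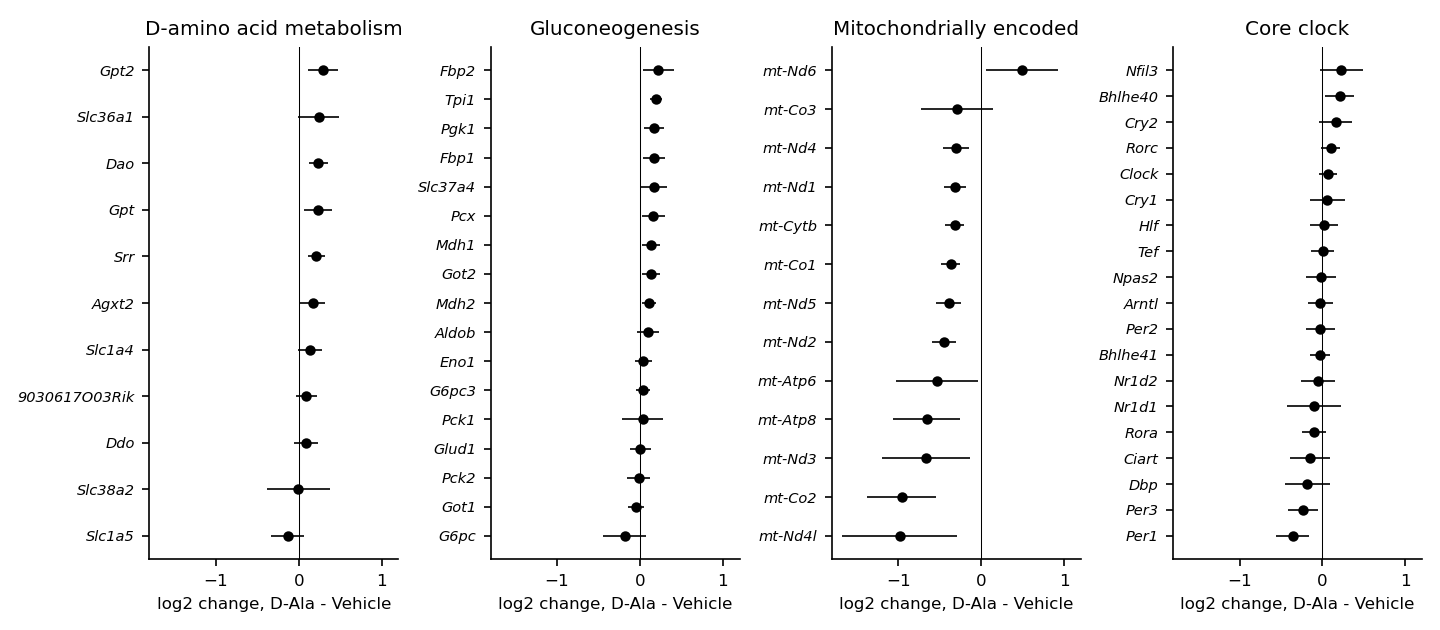
Log2 change at CT16, D-Ala minus Vehicle (x axis, log2(FPKM + 1) scale), for the tested members of 4 gene lists, each sorted by its change. Points are estimates from limma and bars are standard errors. The panel titled D-amino acid metabolism also holds alanine aminotransferase and neutral amino acid transporter genes. Of the mitochondrial mRNAs 12 of 13 lie below 0, of the D-amino acid and alanine list 9 of 11 lie above it, and the 19 core clock genes lie between -0.36 and 0.23.

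The molecular clock drives these tissues with a loop in which CLOCK and BMAL1 activate the Per and Cry repressors. At CT16, 0 of the 19 core clock genes had an unadjusted p under 0.05, and 8 lay above 0 and 11 below it (4 to 9 above in the other scalings), with a median of -0.02. Per1 had the smallest p. It stood at 7.08, 6.48, 4.85 and 7.07 FPKM in D-Ala, against 10.5, 6.04, 9.33 and 8.27 FPKM in Vehicle, a change of -0.36 ± 0.20 (SE; unadjusted p = 0.084 in limma). Per2 had 26.9, 36.02, 21.1 and 22.2 FPKM in D-Ala and 25.4, 29.3, 21.7 and 30.3 FPKM in Vehicle (-0.02 ± 0.18). The activator genes Arntl and Clock stood at -0.02 ± 0.15 and 0.07 ± 0.11, and the repressor genes Cry1 and Nr1d1 at 0.06 ± 0.21 and -0.10 ± 0.33.

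Several clock genes had opposite signs in the tables. Tef, a clock output transcription factor, had 56.6 and 50.7 FPKM in D-Ala and 42.2 and 42.4 FPKM in Vehicle in the first table, but 41.1 and 38.7 FPKM in D-Ala and 48.7 and 52.3 FPKM in Vehicle in the second. Its change was 0.34 and -0.33 in the tables, and the test of that difference had an unadjusted p of 0.00814, not past the threshold after adjustment. Dbp (0.16 and -0.53), Per3 (0.06 and -0.54) and Ciart (0.09 and -0.38) went the same way. In all, 8 of 19 clock genes (42.1%) were above 0 in the first table and below 0 in the second, against 23.8% of all tested genes, and 4 the reverse. Of 15 clock output genes, 11 lay above 0 (5 to 11 in the other scalings) and 1 had an unadjusted p under 0.05. This was Noct, a phosphatase gene, at 2.47, 3.35, 2.35 and 3.03 FPKM in D-Ala and 2.94, 4.46, 4.71 and 4.36 FPKM in Vehicle (-0.42 ± 0.20).

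No gene of the stress lists passed the threshold. All 16 heat shock and cold-inducible genes lay above 0 (14 after quantile normalization or rescaling without mitochondrial genes), with a median of 0.26 (0.16 and 0.17 in those scalings), and 2 of them had an unadjusted p under 0.05. Dnajb1, a co-chaperone of HSP70, had 15.5, 14.9, 21.2 and 15.4 FPKM in D-Ala, against 11.2, 13.02, 13.2 and 11.9 FPKM in Vehicle, without overlap (0.40 ± 0.14 SE; unadjusted p = 0.00742 in limma). The mitochondrial chaperonin genes Hspe1 and Hspd1 stood at 0.25 ± 0.12 and 0.23 ± 0.13, and Bag3 at 0.25 ± 0.13. Of 15 amino acid stress genes, 10 lay above 0 (6 to 11 in the other scalings) and 0 had an unadjusted p under 0.05, with the transcription factor gene Atf4 at 0.29 ± 0.17, and of 15 endoplasmic reticulum stress genes also 0, with 14 above 0 (10 to 15 in the other scalings) and a median of 0.15 (0.05 after quantile normalization or rescaling without mitochondrial genes). Hydrogen peroxide is a product of D-amino acid oxidase. Of 15 oxidative stress genes tested, 12 lay above 0 (7 after quantile normalization or rescaling without mitochondrial genes). Sod2, the mitochondrial superoxide dismutase, had 75.5, 67.6, 87.8 and 96.3 FPKM in D-Ala and 62.6, 60.2, 82.1 and 80.0 FPKM in Vehicle (0.20 ± 0.07, unadjusted p = 0.00466), and the other 14 had larger p-values, Nfe2l2, the regulator of the antioxidant response, at -0.16 ± 0.12.

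Detoxification enzymes lay above 0 for 20 of 22 members (14 after quantile normalization and 15 after rescaling without mitochondrial genes), with a median of 0.20 as deposited, 0.08 after quantile normalization and 0.11 after that rescaling. In 6 of the 22 both D-Ala libraries were above both Vehicle libraries in each table, against 4.85% of all genes. Besides Ces1g, the sulfotransferase gene Sult1c2 had an unadjusted p under 0.05, at 18.0, 16.1, 18.5 and 15.7 FPKM in D-Ala and 11.8, 11.5, 15.7 and 14.4 FPKM in Vehicle (0.34 ± 0.12), with D-Ala replicate 4 just below Vehicle replicate 3. The carboxylesterase genes Ces1e and Ces1d stood at 0.33 ± 0.16 and 0.30 ± 0.16. Members of this family are near copies, so fragments may be shared among them. Fatty acid oxidation genes lay above 0 for 20 of 23 (13 after rescaling without mitochondrial genes), with none at an unadjusted p under 0.05, and cytosolic ribosomal protein genes for 14 of 15 (13 after quantile normalization or rescaling without mitochondrial genes), with Rplp0 at 0.21 ± 0.10. Of the 23 fatty acid oxidation genes, 10 lay above 0 in the first table and below 0 in the second, against 23.8% of all genes. Cholesterol synthesis (12 tested), tubular injury (8), glucose transport (10) and glucocorticoid response genes (14) had none at an unadjusted p under 0.05.

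Immediate early genes, which cells switch on within minutes of a stimulus, lay below 0 for 9 of 14 (9 or 10 in the other scalings), with a median of -0.15. Egr1 had 0.936, 0.413, 0.650 and 0.737 FPKM in D-Ala, against 1.78, 1.25, 1.21 and 1.47 FPKM in Vehicle, without overlap (-0.53 ± 0.24 SE; unadjusted p = 0.0312 in limma). Nr4a1, an orphan nuclear receptor gene, had 2.81, 1.28, 1.42 and 1.68 FPKM in D-Ala and 2.17, 2.68, 2.79 and 3.36 FPKM in Vehicle (-0.44 ± 0.21, unadjusted p = 0.0409), where D-Ala replicate 1 lay above 3 of the 4 Vehicle libraries. Jun stood at -0.40 ± 0.22. Myc was higher, at 8.30, 2.69, 5.42 and 2.64 FPKM in D-Ala and 3.47, 1.89, 2.65 and 2.27 FPKM in Vehicle (0.60 ± 0.28, unadjusted p = 0.0368). Interferon genes lay below 0 for 10 of 13 (10 to 12 in the other scalings), with none at an unadjusted p under 0.05. Of the 13, 8 lay below 0 in the first table and above 0 in the second, against 21.8% of all genes. Their median was -0.29 in the first table and 0.02 in the second.

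Markers of the cell types that a kidney sample can hold were summed per library. In bulk RNA, fewer cells of a type and less RNA per cell cannot be told apart. All 12 proximal tubule markers lay above 0 as deposited (8 after rescaling without mitochondrial genes), with a median of 0.18 (0.09 after that rescaling or quantile normalization), 0 at an unadjusted p under 0.05, and a summed level of 5110, 5444, 6057 and 5520 FPKM in D-Ala and 4628, 4577, 5447 and 5308 FPKM in Vehicle. In each table both D-Ala sums exceeded both Vehicle sums. Lrp2, the endocytic receptor megalin, had 45.8, 57.7, 73.6 and 59.4 FPKM in D-Ala and 43.0, 38.2, 55.5 and 50.3 FPKM in Vehicle (0.33 ± 0.17). The part of this marker level in the higher values of Dao, Slc7a7 and the detoxification genes, which proximal tubule cells express, was not tested.

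Thin and thick limb markers lay below 0 for 7 of 8 in each scaling, with a median of -0.27 and sums of 363 to 838 FPKM in D-Ala and 393 to 901 FPKM in Vehicle. Slc12a1, the sodium-potassium-chloride cotransporter of the thick limb, had 88.2, 88.0, 84.2 and 98.3 FPKM in D-Ala, against 147, 96.9, 123 and 186 FPKM in Vehicle, with the highest D-Ala value above the lowest Vehicle value but both D-Ala libraries below both Vehicle libraries in each table (-0.58 ± 0.29 SE; unadjusted p = 0.0496 in limma). Distal convoluted tubule (6 tested), principal cell (7), intercalated cell (7), podocyte (7), inner medulla (9), smooth muscle and pericyte (7), fibroblast (7), macrophage (6), lymphocyte (4) and red blood cell markers (7) had none at an unadjusted p under 0.05. Sums overlapped between treatments for macrophage (168 to 312 FPKM in D-Ala and 161 to 290 FPKM in Vehicle) and endothelium markers (147 to 175 and 138 to 195 FPKM).

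Markers of the tissue around the kidney were high in a single library. The 6 urothelium markers, which mark the lining of the renal pelvis, summed to 9.24, 21.04, 19.5 and 110 FPKM in D-Ala, against 18.8, 25.3, 9.39 and 3.73 FPKM in Vehicle, and all 5 that were tested lay below 0 in the first table and above 0 in the second. D-Ala replicate 4 was the high one. It was also the highest for adipose markers, at 58.1 FPKM, against at most 21.6 FPKM in the other 7 libraries, with the adipokine gene Cfd at 33.5 FPKM and Adipoq at 2.80 FPKM. Mdk had its highest value in the same library. Without D-Ala replicate 4 the log2 change of Mdk was 0.83.

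The genes that differ at other times give a reference for CT16. Their changes come from libraries of the other times. The spread that decides the calls was estimated from all 48 libraries, those of CT16 included. Over the mean of CT0, CT4, CT8, CT12 and CT20, limma with Benjamini-Hochberg adjustment called 171 genes, 151 higher (1.01%) and 20 lower (0.134%), with 20 libraries per treatment. This count depended on the scaling, with 2500 higher and 36 lower in TPM, 58 and 15 after rescaling without mitochondrial genes, 8 and 37 with median centring, and 1 and 4 after quantile normalization. The counts that follow are for the values as deposited. Of the 151 that rose there, 123 lay above 0 at CT16, where 62.5% of all genes do. Among the 151, 17 were higher at an unadjusted p under 0.05 at CT16, as were 4.09% of all genes. Their median change was 0.08 at CT16 and 0.20 at the other times, and 129 of them were closer to 0 at CT16. They were chosen by their values at the other times, so the order of these medians is no test. The count of 17 is no test either, since the CT16 p-values share their estimate of spread with the calls at the other times. Of the 20 that fell there, 14 lay below 0 at CT16, as did 5550 of all 14922 genes. Among these 20, 10 are known only by an identifier. Ces1g, Mdk, Ier3, Nr4a1 and C1ra had the largest positive changes over the other 5 times among genes with a name. At CT16 the early response gene Ier3 stood at 0.20 ± 0.28, with 27.0, 22.1, 36.3 and 41.4 FPKM in D-Ala and 27.1, 28.9, 24.5 and 26.8 FPKM in Vehicle, and the complement gene C1ra at 0.04 ± 0.22. Among those that fell, mt-Atp8 stood at -0.66 ± 0.40 at CT16, Rnf24 at -0.42 ± 0.30 and Fam25c at 0.33 ± 0.25.

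**Figure D4:**
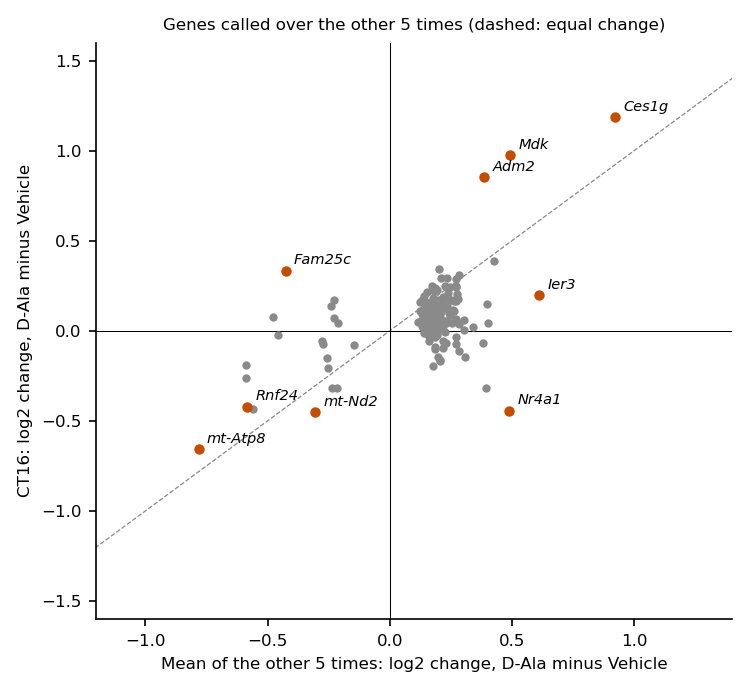
Log2 change, D-Ala minus Vehicle, of the 171 genes called over the mean of the other 5 times (x axis) and of the same genes at CT16 (y axis), both on the log2(FPKM + 1) scale. Each dot is a gene, named genes are orange and the dashed line marks equal change; most genes called higher lie below that line, with a median of 0.08 at CT16, while Mdk, Adm2 and Ces1g lie above it and Nr4a1 lies below 0 on the y axis.

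Whether the effect at CT16 differs from the mean effect at the other 5 times was tested in the same model. No gene passed (0%; smallest adjusted p = 0.943), with 611 genes at an unadjusted p under 0.05, 314 higher and 297 lower at CT16, and limma voom also called 0. Nr4a1 had the smallest p of the genes whose change was lower at CT16. It was -0.44 at CT16, against 0.26, 0.74, 0.29, 0.78 and 0.37 at CT0, CT4, CT8, CT12 and CT20, a difference of -0.93 (unadjusted p = 0.00023, adjusted p = 0.943 in limma). Its mean was 1.80 FPKM in D-Ala and 2.75 FPKM in Vehicle at CT16, while at the other times it ran from 1.86 to 3.28 FPKM in D-Ala and from 1.32 to 1.71 FPKM in Vehicle. The Vehicle mean was thus higher at CT16 than at any other time, and Jun had the same feature, with 10.2 FPKM in Vehicle at CT16 against 5.17 to 7.01 FPKM at the other times.

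The log2 change of Cd38 was -0.47 at CT16, against 0.02 to 0.29 at the other times (a difference of -0.61, unadjusted p = 0.000231). Tfap2b, a transcription factor of the distal nephron, had 4.88, 5.24, 5.37 and 4.63 FPKM in D-Ala at CT16 and 8.16, 6.05, 6.79 and 6.43 FPKM in Vehicle, without overlap, and a difference between times of -0.55. Ncf4 and the zinc finger gene Zbtb21 completed the 5 with smallest p in this direction. In the other direction stood Prdx6 (0.19), Rnaseh2b, a subunit of ribonuclease H2 (0.36), the proteasome subunit gene Psma4 (0.29), Grtp1 (0.46) and the chaperone gene Uxt (0.37). Of the 24 pathway and 16 marker lists, some were one-sided. The change at CT16 was below that of the other times for 13 of 14 immediate early genes, 8 of 8 endothelium, 7 of 7 fibroblast, 6 of 6 macrophage and 12 of 13 interferon and 8 of 8 thin and thick limb genes, and for 53.7% of all genes. It was above that of the other times for 20 of 22 detoxification, 21 of 23 fatty acid oxidation and 11 of 12 proximal tubule genes. The same held for 17 of 18 nuclear oxidative phosphorylation, 14 of 15 cytosolic ribosomal protein, 14 of 16 tubular amino acid transport and 5 of 5 urothelium genes. Of all 14922 genes, 6879 lay above. The summed urothelium markers were high in a single CT16 library, D-Ala replicate 4, and all 5 tested lay below 0 in the first table. These list counts are for the values as deposited and were not made in the other scalings. With rescaling without mitochondrial genes the median of all genes was -0.10 in this comparison, against -0.02 as deposited, and 118 genes were higher and 820 lower at an unadjusted p under 0.05. Members of a list share libraries, so these counts describe the lists and test nothing.

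The tables were compared last. The difference between the treatment effects of the 2 tables at CT16 was past the threshold for 0 genes (0%; smallest adjusted p = 0.601 in limma, with 552 genes at an unadjusted p under 0.05), and limma voom also called 0. The effects nevertheless had little in common across genes. Their Spearman correlation was 0.03 over the 14922 genes, which share the same 8 libraries and are not independent, and 53.3% of genes had the same sign in both. Cpeb3, which encodes a regulator of mRNA translation, had 19.4 and 19.9 FPKM in D-Ala and 13.7 and 14.2 FPKM in Vehicle in the first table, and 7.78 and 10.1 FPKM in D-Ala and 16.1 and 16.03 FPKM in Vehicle in the second. Gpc3, a proteoglycan gene, and the urothelium marker Krt5 went the other way. The change of Gpc3 was -0.60 in the first table, against 0.36 in the second, and that of Krt5 was -0.61, against 2.51. Rrp8, Capn13 and Lrrc26 followed on the side of the second table, and Mrps10, Luc7l2, Ice2 and Slc39a14 on the side of the first.

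**Figure D5:**
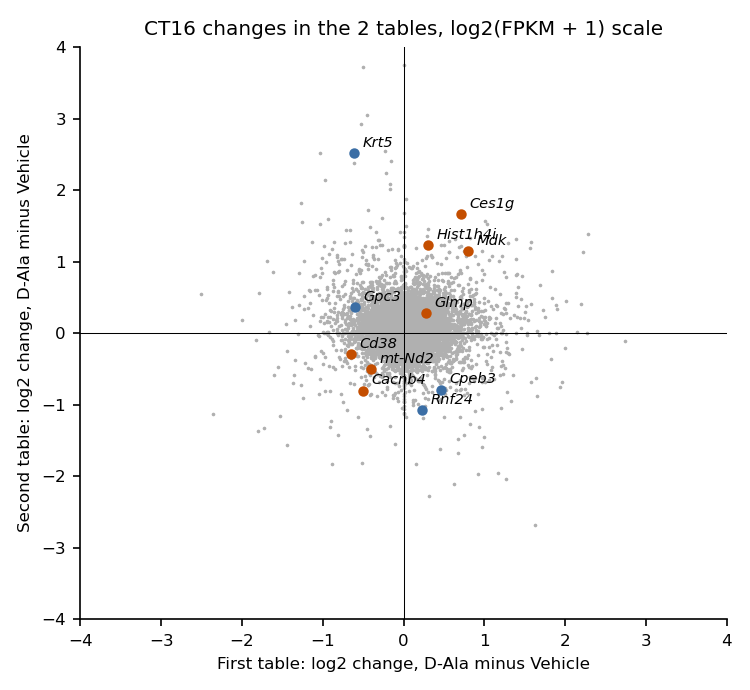
Log2 change at CT16, D-Ala minus Vehicle, in the first table (x axis) and in the second table (y axis), on the log2(FPKM + 1) scale, each from 2 libraries per treatment. Grey dots are the 14922 tested genes, and named genes are orange where both tables had the same sign and blue where they did not; the Spearman correlation across genes is 0.03.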

How the data were processed

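Kidney RNA of 48 mice was sequenced from mRNA libraries (SMARTER mRNA-Seq kit, per the labels' protocols). The authors deposited FPKM values in 2 tables of 24 libraries, and the submitters' processing notes name the build GRCm38 (mm10). No source used here gives the aligner, the counter or the strand setting. The depth of a library was recovered from the steps of its low FPKM values, of which 97.0% to 97.7% were whole fragments within 0.05 for genes of 1 transcript below 20 fragments. Intervals of counting error were not used, since the tests rest on the spread between libraries. Of the gene identifiers, 49326 matched GENCODE release M21.

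Genes that reached 1 FPKM in 4 or more libraries were tested with limma 3.58.1 (R 4.3.3), with trend, on log2(FPKM + 1), with 12 groups, a table term, contrasts for CT16, and Benjamini-Hochberg adjustment with a threshold of 0.05. Fold changes of low genes are understated on this scale. The scripts were tested on simulated data. The mitochondrial share was tested by exact permutation within tables. Alternatives were a pseudocount of 0.1, no filter, 4 other scalings, other table terms, each table alone, the CT16 libraries alone, robust moderation, voom on recovered fragments, and leaving out each CT16 library.

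Named genes were the 10 of smallest p in each direction at CT16 with the same sign in both tables, the 5 of smallest p in each direction for the tests between times and between tables, the 5 of largest change in each direction among genes called at the other times, any of 4 main lists, and up to 4 of each other list. Genes known only by an identifier were not named. Slc34a1 and Slc27a2 were named for their level after values were seen. Members and lists were chosen with earlier results of these data known.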

Additional observations from a re-analysis of the deposited data

Results flagged for a closer look

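Within each group of 4 libraries, single values far from the other 3 were sought with Dixon's criterion at 95%, which chance meets in about 1 in 20 groups. Of 234 groups examined, for the genes named and the summed markers, 19 met it (8.12%). D-Ala replicate 4 held 7 of them. These were Mdk at 25.45 FPKM, Cfd at 33.54 FPKM, Adipoq at 2.802 FPKM, Krt5 at 15.3 FPKM, mt-Co2 at 2415 FPKM, and the summed lymphocyte markers at 5.427 FPKM and urothelium markers at 109.9 FPKM. D-Ala replicate 1, the shallowest library, stood apart for mt-Nd6 at 5445 FPKM and Dnase2a at 2.677 FPKM, where it was high, and for the summed podocyte markers at 41.9 FPKM, where it was low.

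Among the other D-Ala libraries, replicate 2 was high for Ciart at 2.806 FPKM, and replicate 3 for Dnajb1 at 21.21 FPKM and Agxt at 0.05049 FPKM. In Vehicle, replicate 2 stood apart for mt-Co2 at 6335 FPKM and, on the low side, for Dnase2a at 1.354 FPKM. Vehicle replicate 1 was high for Magohb at 3.718 FPKM. Vehicle replicate 4 was high for Uxt at 11.04 FPKM, Agxt at 0.04848 FPKM and the summed smooth muscle and pericyte markers at 211.5 FPKM. Agxt did not reach the level for testing, so its flags rest on values near the floor.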

How the results depend on the processing

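The count of 0 genes called at CT16 was also 0 with the other pseudocount, scalings, table terms, single tables, CT16 libraries alone, robust moderation, voom and each library left out. The exception was no filter on low values, which called 1 gene, Mir148a, with 1, 0, 2 and 1 fragments in D-Ala and 0 in each Vehicle library, at or under the 3 fragments that a count of 0 allows. The smallest adjusted p in limma with 1 library left out ran from 0.0626, without D-Ala replicate 3, to 0.9999, without D-Ala replicate 1. Without Vehicle replicate 2, the library with the largest mitochondrial share, 466 genes were higher and 261 lower at an unadjusted p under 0.05. The median of all genes ran from -0.035 to 0.083 over the scalings. The 20 leading genes passed the threshold in 0 of 420 values over 21 settings. Their direction was the same in each, which is no sign of stability, since they were chosen for the same sign in both tables and the settings share the 8 libraries. Of 4830 values of all named genes, 200 changed sign.

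For CT16 against the other 5 times, no filter called 1 gene. For the difference between the tables, no filter called 12 genes, and leaving out 1 library gave 0 to 4, with 4 without D-Ala CT16 replicate 2. The 171 genes called over the other 5 times became 59 with no filter, 2536 with TPM, 5 with quantile normalization, 45 with median centring (8 higher and 37 lower), 73 with rescaling without mitochondrial genes, 1 with no table term, 302 with a table by time term, 1 in either table by itself and 113 with voom. The cause was not tested. The difference in mitochondrial share ran from -7.522 to -4.428 points with 1 library left out. No paired analysis was possible because the replicate numbers were given in accession order and pair no libraries. A library of 7625600 fragments and genes near 1 FPKM limit what these data resolve.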
